A study of Homo sapiens with 8 samples.

Results

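Aminoacyl-tRNA synthetases join each amino acid to its transfer RNA, the step that fixes the genetic code before translation. The genes were taken from the count table by name: a symbol made of a one-letter amino acid code followed by ARS, with or without 1 or 2 at its end, together with EPRS, FARSA and FARSB. The rule found 37 of the 58870 gene rows. Of these, 20 encode cytosolic enzymes (GARS and KARS serve both compartments) and 17, whose names end in ARS2, encode mitochondrial enzymes. All 37 passed the filter on low counts.

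Human cells charge tRNAs in the cytosol and, separately, inside mitochondria, and both sets of enzymes come from nuclear genes. The enzymes fall into 2 structural classes, I and II, which differ in the fold of the catalytic domain. Several cytosolic synthetases are held together with the scaffold proteins AIMP1, AIMP2 and EEF1E1 in the multisynthetase complex. When amino acids run short, uncharged tRNA activates the kinase GCN2 (EIF2AK4), phosphorylation of eIF2 favours translation of the transcription factor ATF4, and ATF4 raises transcription of amino acid synthesis, transport and tRNA charging genes.

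RNA sequencing compared control cells of Panc 10.05, an established line from a human pancreatic ductal adenocarcinoma, with Panc 10.05 cells overexpressing ELAPOR1, a transmembrane protein of the endosomes and lysosomes. There were 4 libraries in each group, and the series was titled as a study of tumour subtype and metabolism. The labels do not say how ELAPOR1 was overexpressed, whether the control cells carried a vector, whether a group was 1 clone, or whether the libraries came from separate cultures or batches. P-values below therefore measure only the spread between these libraries.

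Libraries held 16558600 to 18128757 counts in control and 13765509 to 17258166 in ELAPOR1. ELAPOR1, listed in the table under its older symbol KIAA1324, had 1, 1, 4 and 4 counts in the control libraries and 7006, 6422, 5910 and 7368 in the ELAPOR1 libraries, as the labels state. The groups separated on the first principal component, which carried 46.6% of the variance. Of the epithelial marker genes checked, 8 of 8 were expressed, at a summed level of 12073 to 13341 counts per 1e6 (CPM) in control and 11322 to 11659 in ELAPOR1. Fibroblast markers summed to 2.95 to 4.32 CPM in control and 2.71 to 3.19 in ELAPOR1, with COL1A2, DCN and LUM at 0, and endothelial markers to 1.62 to 2.13 and 0.576 to 0.998, with CDH5 at 0. Leukocyte markers summed to 82.0 to 88.5 and 73.3 to 79.2 CPM, with CD3E at 0, and CD68, which is expressed beyond leukocytes, made up nearly all of that sum.

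ELAPOR1 cells expressed the cytosolic synthetases at altered proportions, with more genes lower than higher. Mitochondrial synthetases changed about as often as all genes tested, and most that changed were higher. In edgeR's quasi-likelihood test, a gene was called at a Benjamini-Hochberg adjusted p under 0.05 over all 13860 genes tested. Of the 20 cytosolic genes, 7 were called higher and 10 lower, and 3 were not called. Of the 17 mitochondrial genes, 7 were called higher and 1 lower, and 9 were not called. Among all genes tested, 44.7% were called, 22.6% higher and 22.1% lower, and in 39.2% the 4 CPM values of ELAPOR1 lay apart from the 4 of control. The groups did not overlap for 17 cytosolic and 6 mitochondrial genes. For the mitochondrial genes, the shares called and without overlap were near those of all genes.

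Calls depend on the expression level, and synthetases are well expressed. Among the 4031 tested genes at or above the control level of the lowest cytosolic synthetase, 62.7% were called. Among the 10112 at or above that of the lowest synthetase of either compartment, 52.4% were called. The median log2 fold change was −0.081 over the cytosolic genes, 0.054 over the mitochondrial genes and 0.00087 over all genes tested. The mitochondrial median rests on single libraries: it was −0.022 without control library 1 and 0.112 without control library 2.

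The changes were small. The cytosolic genes ranged from a log2 fold change of −0.42 for SARS to 0.26 for FARSB, and the mitochondrial genes from −0.19 for RARS2 to 0.68 for MARS2. The median size of the change was 0.21 among the synthetases called and 0.28 among all genes called. Among called genes at or above the control level of the lowest synthetase it was 0.25. At or above that of the lowest cytosolic synthetase it was 0.20. When edgeR instead tested for a change beyond 1.2-fold (glmTreat), 6 of the 37 synthetases and 1545 of the 13860 genes tested were called. Of these synthetases, SARS, CARS and QARS were lower, and MARS2, AARS2 and EARS2 higher.

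**Figure D1:**
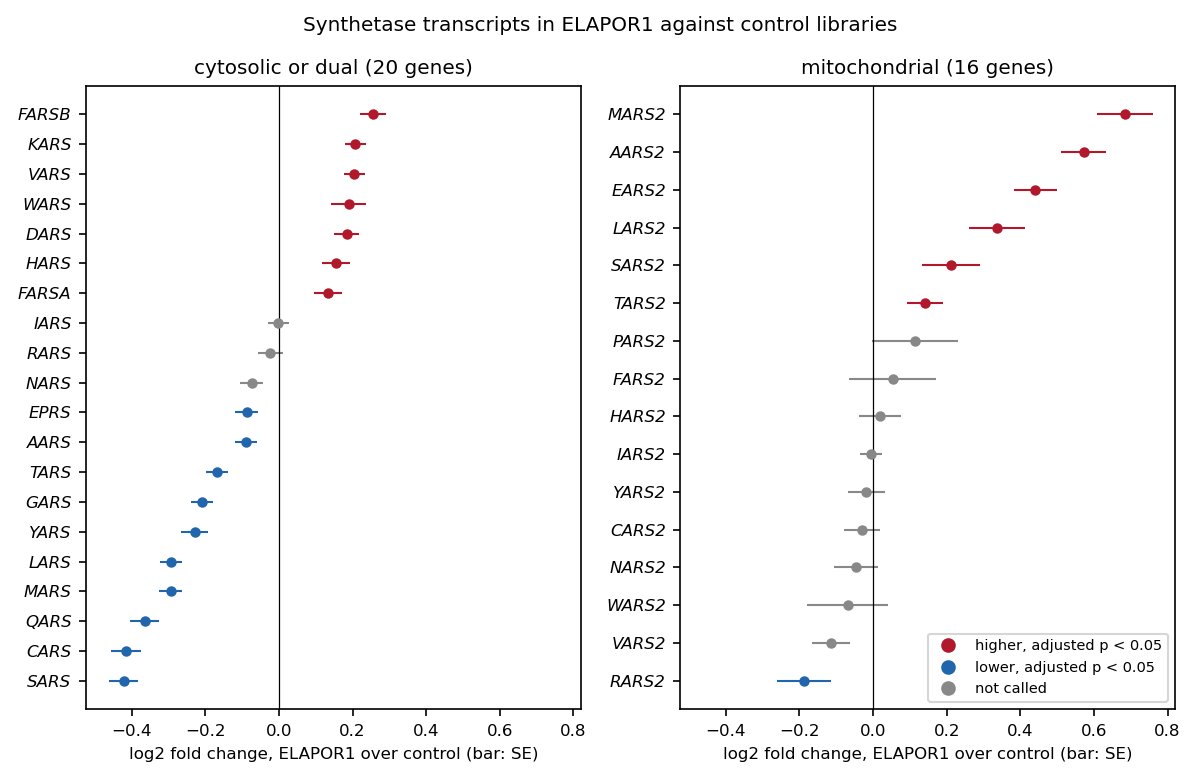
Log2 fold change (ELAPOR1 over control) of 36 synthetase genes with its standard error, with cytosolic or dual and mitochondrial genes marked separately. SARS is lowest at −0.42 and MARS2 highest at 0.68, and more cytosolic genes lie below 0 than above it.

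Cytosolic synthetases had a higher median level than mitochondrial ones. Per kilobase of transcript, control levels ran from 19.0 to 123 CPM per kb over the cytosolic genes (median 64.4), lowest for WARS and highest for KARS, and from 3.07 to 82.3 over the mitochondrial genes (median 12.3), lowest for PARS2 and highest for IARS2. Summed over the 20 cytosolic genes, the control libraries held 4393, 4403, 4374 and 4397 CPM and the ELAPOR1 libraries 4202, 4227, 4203 and 4193 CPM. The 17 mitochondrial genes summed to 792, 834, 811 and 830.0 CPM in control and 857, 857, 872 and 873 in ELAPOR1. The cytosolic sum was thus lower and the mitochondrial sum higher in every ELAPOR1 library than in any control library. In bulk RNA, fewer cells of a type and less RNA per cell cannot be told apart.

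SARS, the cytosolic seryl-tRNA synthetase, fell most. It lies at chr1:109213918-109238169 on the plus strand (GENCODE 29, GRCh38). Its level was 111.6, 119.6, 119.9 and 123.3 CPM in the control libraries and 85.1, 93.3, 88.0 and 87.6 in the ELAPOR1 libraries. All ELAPOR1 libraries were below all control libraries, by a log2 fold change of −0.42 (edgeR, SE 0.0403, adjusted p = 1.4e-10). SARS is the next tested gene after ELAPOR1 itself, which ends 7.14 kb upstream on the same strand. The 20 tested genes nearest to SARS had a median log2 fold change of −0.040, with 3 called higher, ELAPOR1 among them, and 6 lower.

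CARS, the cytosolic cysteinyl-tRNA synthetase (chr11:3000922-3057613, minus strand), fell by a similar amount. It measured 103.3, 101.1, 102.2 and 106.4 CPM in control and 78.5, 79.2, 78.8 and 73.5 in ELAPOR1. The groups were far apart, with a log2 fold change of −0.41 (edgeR, SE 0.0400, adjusted p = 1.7e-10), about 25.0% lower.

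QARS, the glutaminyl-tRNA synthetase of the multisynthetase complex (chr3:49095932-49105135, minus strand), measured 116.4, 115.0, 126.3 and 120.5 CPM in control and 95.6, 87.7, 94.2 and 93.8 in ELAPOR1. Its log2 fold change was −0.36 (edgeR, SE 0.0399, adjusted p = 2.7e-09), and the groups did not overlap.

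The methionyl and leucyl enzymes, both in the complex, fell by similar amounts. MARS (chr12:57475445-57517569, plus strand) measured 268.4, 287.1, 276.0 and 285.0 CPM in control and 229.4, 234.0, 226.7 and 220.6 in ELAPOR1, a log2 fold change of −0.29 (edgeR, SE 0.0314, adjusted p = 1.7e-09). LARS (chr5:146113038-146182660, minus strand) measured 311.3, 296.7, 306.3 and 296.4 CPM in control and 241.3, 248.2, 246.3 and 252.9 in ELAPOR1, a log2 fold change of −0.29 (edgeR, SE 0.0302, adjusted p = 8.0e-10). In both genes every ELAPOR1 library was below every control library. MARS overlaps DDIT3 on the opposite strand, which measured 30.3 CPM in control and fell by 0.54 on the log2 scale. The use of strand in counting was not given in the sources used here, and the part of DDIT3 reads in the MARS value was not tested.

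YARS, the tyrosyl-tRNA synthetase (chr1:32775237-32818153, minus strand), measured 139.7, 146.4, 137.6 and 146.9 CPM in control and 120.3, 124.8, 118.2 and 123.2 in ELAPOR1. Its log2 fold change was −0.23 (edgeR, SE 0.0358, adjusted p = 2.5e-06), again with no overlap between groups. GARS, the glycyl-tRNA synthetase used in both compartments, fell by 0.21 on the log2 scale. GARS-DT, which overlaps GARS on the opposite strand, had a log2 fold change of −0.48.

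TARS, AARS and EPRS were called lower with smaller changes. TARS, the threonyl-tRNA synthetase, measured 387.5, 390.6, 379.2 and 376.7 CPM in control and 349.3, 343.9, 328.9 and 342.9 in ELAPOR1 (log2 fold change −0.17, SE 0.0291, edgeR adjusted p = 1.3e-05). AARS, the alanyl-tRNA synthetase, measured 368.5, 386.4, 388.4 and 390.5 in control and 366.6, 359.3, 360.2 and 355.3 in ELAPOR1 (log2 fold change −0.090, SE 0.0290, edgeR adjusted p = 0.0115).

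For TARS and AARS the groups did not overlap. EPRS, which charges both glutamate and proline, measured 382.0, 367.4, 358.7 and 344.2 CPM in control and 338.9, 342.3, 340.9 and 344.6 in ELAPOR1 (log2 fold change −0.088, SE 0.0308, edgeR adjusted p = 0.0197). Its groups overlapped at the lowest control library. With total count scaling in place of the trimmed mean of M-values (TMM), AARS and EPRS lost their calls (adjusted p = 0.0516 and 0.0792). EPRS also lost its call without control library 2 (adjusted p = 0.0598) or ELAPOR1 library 1 (0.0594).

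NARS, RARS and IARS, the asparaginyl, arginyl and isoleucyl enzymes, were not called. NARS lay close to the threshold: it measured 211.4, 208.7, 204.4 and 212.5 CPM in control and 196.2, 193.3, 203.3 and 202.6 in ELAPOR1, which did not overlap, at a log2 fold change of −0.074 (edgeR, SE 0.0314, adjusted p = 0.0552). It was called without control library 1 (adjusted p = 0.0389). IARS (484 ± 17.3 CPM in control and 483 ± 2.15 in ELAPOR1, SD, n = 4 each) had a log2 fold change of −0.0016 (SE 0.0289), and RARS one of −0.023 (SE 0.0336).

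Several cytosolic genes, called lower or not called, carry the C/EBP-ATF response element near their start. At this composite site ATF4 binds with a C/EBP partner. The element was searched as TGATGNAA on both strands in the 300 bases from 250 before to 50 after the start sites (RefSeq, GRCh38.p14), where a promoter was found for 30 of the 37 genes. It occurred in 7 of the 16 cytosolic genes with a promoter (43.8%), in 1 of the 14 mitochondrial genes (7.14%), and in 2.62% of the 10326 tested genes with a promoter. By call, it occurred in 5 of 8 lower cytosolic genes, in 0 of 5 higher ones and in 2 of 3 that were not called. The matches in the cytosolic genes are shown because they stand in genes that fell or were not called. Each is given 5′ to 3′ on the gene's strand with the element in capitals.
CARS, chr11:3057407-3057436, minus strand: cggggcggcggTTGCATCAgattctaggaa
MARS, chr12:57488053-57488082, plus strand: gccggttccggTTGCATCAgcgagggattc
TARS, chr5:33440956-33440985, plus strand: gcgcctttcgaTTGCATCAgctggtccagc
GARS, chr7:30594834-30594863, plus strand: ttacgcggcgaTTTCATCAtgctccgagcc
AARS, chr16:70289675-70289704, minus strand: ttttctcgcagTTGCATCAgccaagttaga
IARS, chr9:92293692-92293721, minus strand: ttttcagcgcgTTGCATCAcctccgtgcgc
NARS, chr18:57621804-57621833, minus strand: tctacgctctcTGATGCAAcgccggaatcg

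In CARS, MARS, TARS, IARS, GARS and NARS the element begins between −33 and 14 bases from a start site, and in AARS at −187. The match in GARS reads TTTCATCA, and those in the other 6 genes read TTGCATCA or its reverse complement TGATGCAA. The mitochondrial gene with a match was YARS2, whose log2 fold change was −0.018 (SE 0.0512, not called). SARS and QARS, with 2 of the 3 largest falls, had no match, which says only that these letters are not in the window. A match is a description of the letters and not of a bound site.

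In the literature, ATF4 is reported to raise 12 of the cytosolic synthetases: AARS, CARS, EPRS, GARS, IARS, LARS, MARS, NARS, SARS, TARS, WARS and YARS. That list was recalled after the values had been seen. The split by it is therefore a description and cannot test a part of ATF4. Of the 12, 9 were called lower, 1 (WARS) rose and 2 (IARS and NARS) were not called, with a median log2 fold change of −0.19. Of the other 8 cytosolic genes, 1 (QARS) was called lower, 6 higher and 1 (RARS) was not called, with a median of 0.17.

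**Figure D2:**
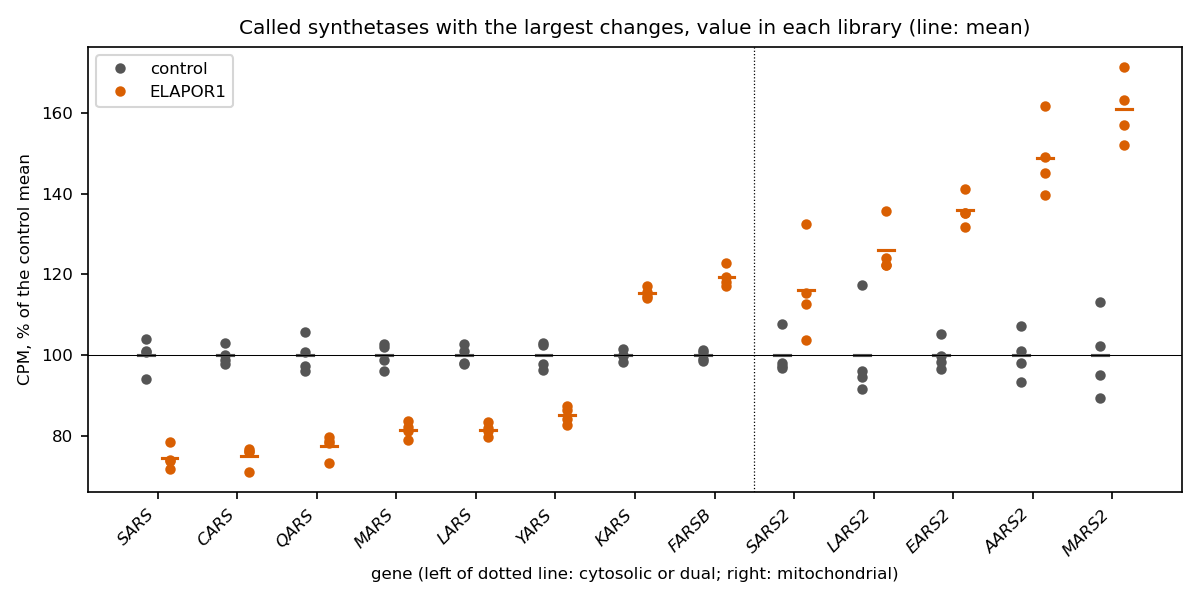
CPM, as a percentage of the control mean of each gene (vertical axis), of the synthetases with the largest called changes, with a point for each of the 4 control and 4 ELAPOR1 libraries and a line at the group mean. SARS, CARS, QARS, MARS, LARS and YARS are lower in every ELAPOR1 library than in any control library, and KARS, FARSB, MARS2, AARS2 and EARS2 are higher.

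The cytosolic enzymes that rose were FARSB, KARS, VARS, WARS, DARS, HARS and FARSA. FARSB, the beta subunit of phenylalanyl-tRNA synthetase (chr2:222570536-222656337, minus strand), measured 112.2, 114.2, 114.7 and 111.6 CPM in control and 133.6, 135.1, 139.2 and 132.7 in ELAPOR1. It rose by a log2 fold change of 0.26 (edgeR, SE 0.0349, adjusted p = 2.5e-07) with no overlap. FARSA, the alpha subunit of the same enzyme, rose less, by 0.13 (SE 0.0391, edgeR adjusted p = 5.6e-03), and whether the subunits differ from each other was not tested.

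KARS, the lysyl-tRNA synthetase of both compartments (chr16:75627474-75648643, minus strand), measured 292.6, 297.3, 297.1 and 302.0 CPM in control and 343.8, 348.6, 339.6 and 341.0 in ELAPOR1. Its log2 fold change was 0.21 (edgeR, SE 0.0285, adjusted p = 2.6e-07), and the groups were far apart. Its 20 nearest tested genes had the same median log2 fold change, 0.21, with 8 called higher and 3 lower. KARS overlaps TERF2IP on the opposite strand, which had a log2 fold change of 0.20.

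VARS, the valyl-tRNA synthetase, rose by 0.21, while its neighbours on chromosome 6 had a median of −0.18. WARS, the tryptophanyl enzyme, rose by 0.19, DARS, the aspartyl enzyme, by 0.18, and HARS, the histidyl enzyme, by 0.15. In all 4 genes every ELAPOR1 library was above every control library. HARS and HARS2 overlap each other on opposite strands. HARS2 also overlaps ZMAT2 on its own strand, which had a log2 fold change of 0.18. The HARS counts were whole numbers in all 8 libraries, while those of HARS2 were not in 7. Which gene shared the divided reads of HARS2 was not tested.

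Among the cytosolic enzymes, 6 of the 10 of class I were called lower and 2 higher (median log2 fold change −0.16). Of the 10 of class II, 4 were called lower and 5 higher (median 0.030). EPRS, which charges both glutamate and proline, was counted in class I only. Of the 8 enzymes of the multisynthetase complex, EPRS, LARS, MARS and QARS were lower, DARS and KARS higher, and IARS and RARS were not called (median −0.055). The 12 cytosolic enzymes outside it had 6 lower and 5 higher (median −0.082). Both directions therefore occurred within the complex and outside it.

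The mitochondrial enzymes that changed rose, except RARS2. MARS2, the mitochondrial methionyl-tRNA synthetase (chr2:197705369-197708387, plus strand), rose most of all 37. It measured 16.6, 18.4, 15.5 and 14.6 CPM in control and 24.7, 25.5, 27.9 and 26.5 in ELAPOR1, 1.61-fold higher. Every ELAPOR1 library was above every control library (log2 fold change 0.68, SE 0.0761, edgeR adjusted p = 3.9e-09).

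AARS2, the mitochondrial alanyl-tRNA synthetase (chr6:44299654-44313326, minus strand), measured 29.7, 27.2, 28.0 and 25.9 CPM in control and 38.7, 44.8, 40.2 and 41.3 in ELAPOR1. It rose 1.49-fold with no overlap (log2 fold change 0.57, SE 0.0613, edgeR adjusted p = 1.8e-09). Its 20 nearest tested genes had a median log2 fold change of −0.14, with 8 called lower and 3 higher, so AARS2 moved against the genes around it.

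EARS2, the mitochondrial glutamyl-tRNA synthetase (chr16:23522014-23557731, minus strand), measured 27.4, 28.9, 27.0 and 26.5 CPM in control and 37.1, 36.2, 38.7 and 37.1 in ELAPOR1, 1.36-fold higher (log2 fold change 0.44, SE 0.0585, edgeR adjusted p = 1.4e-07). The genes around it rose by as much: the 20 nearest tested genes, over 2.88 Mb, had a median of 0.44, 13 were called higher and 0 lower. EARS2 also overlaps UBFD1 on the opposite strand (47.5 CPM in control, log2 fold change 0.60). MARS2 lay in a region with a smaller shift in the same direction, where the 20 neighbours had a median of 0.16, 10 called higher and 0 lower. The part of such regional shifts in the values of EARS2 and MARS2 was not tested.

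LARS2, the mitochondrial leucyl-tRNA synthetase (chr3:45388506-45549421, plus strand), measured 19.5, 24.1, 18.8 and 19.8 CPM in control and 25.5, 25.1, 25.1 and 27.9 in ELAPOR1. The highest control library came close to the ELAPOR1 libraries without overlapping them (log2 fold change 0.34, SE 0.0755, edgeR adjusted p = 4.2e-04).

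The remaining mitochondrial calls were less firm. SARS2, the seryl enzyme (chr19:38915266-38930896, minus strand), measured 18.1, 17.9, 17.9 and 19.9 CPM in control and 19.2, 21.3, 24.4 and 20.8 in ELAPOR1, with overlap (log2 fold change 0.21, SE 0.0778, edgeR adjusted p = 0.0261). MRPS12, which overlaps SARS2 on the opposite strand, had a log2 fold change of 0.34. TARS2, the threonyl enzyme, measured 45.015, 47.0, 49.8 and 49.6 in control and 53.8, 53.4, 52.0 and 51.7 in ELAPOR1 (log2 fold change 0.14, SE 0.0494, edgeR adjusted p = 0.0196). RARS2, the arginyl enzyme, measured 22.6, 20.8, 22.2 and 24.1 in control and 18.9, 18.9, 21.7 and 19.3 in ELAPOR1, with overlap (log2 fold change −0.19, SE 0.0734, edgeR adjusted p = 0.0359).

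Each of these calls ended when single libraries were left out. SARS2 was not called without ELAPOR1 library 3 (log2 fold change 0.15, adjusted p = 0.146) or without control library 2 or 3 (0.0642 and 0.0679). TARS2 was not called without control library 1 (0.0836), control library 2 (0.0518) or ELAPOR1 library 1 (0.0553). RARS2 was not called without control library 3 or 4 (0.0583 and 0.116) or ELAPOR1 library 1, 2 or 4 (0.0999, 0.0941 and 0.0814). DESeq2's Wald test did not call SARS2 (0.0517) or RARS2 (0.0668).

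The other 9 mitochondrial genes, VARS2, WARS2, NARS2, CARS2, YARS2, IARS2, HARS2, FARS2 and PARS2, were not called, with log2 fold changes from −0.11 to 0.11 and standard errors from 0.0288 to 0.118. VARS2, the valyl enzyme, had the lowest adjusted p of these (0.0773); its 49.3, 54.8, 53.5 and 57.2 CPM in control overlapped the 49.5, 49.9, 52.8 and 46.3 in ELAPOR1. It was called lower without control library 1 (adjusted p = 0.00948) or ELAPOR1 library 3 (0.0430). The least expressed, PARS2, had 96 to 140 counts in a library, and a standard error of 0.117, against 0.0285 for KARS. A change near that size was not detectable at this depth.

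**Figure D3:**
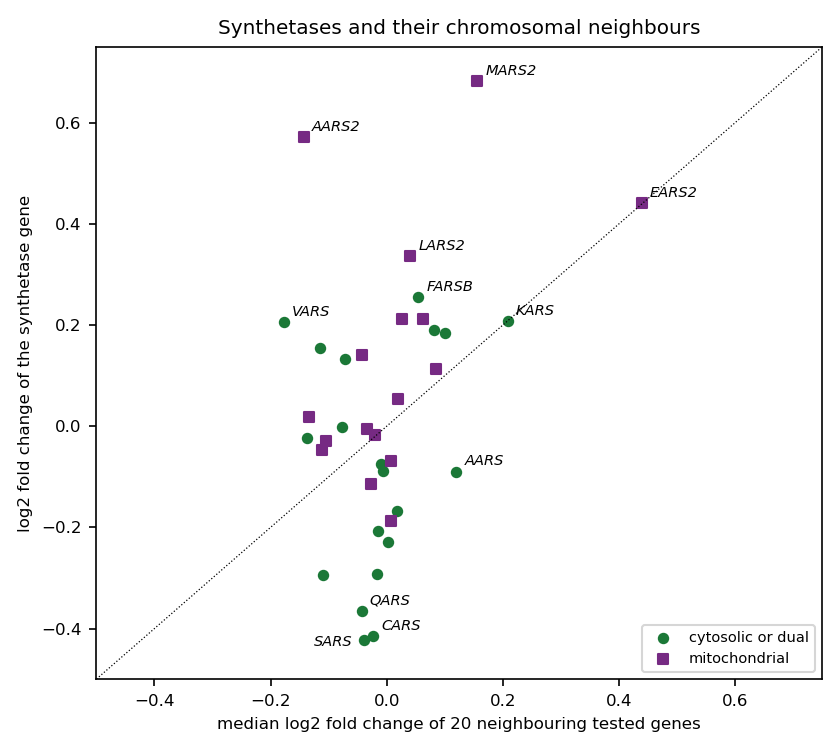
Log2 fold change of each synthetase gene (vertical axis) against the median log2 fold change of its 20 nearest tested genes (horizontal axis), with the dotted line marking equal values. EARS2 and KARS lie on the line, at 0.44 and 0.21, while AARS2, MARS2, SARS, CARS and QARS lie far from it.

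Matching cytosolic and mitochondrial genes for the same amino acid gave 17 pairs described here, in which FARSA and FARSB were each paired with FARS2, and EPRS with both EARS2 and PARS2. In 6 pairs both genes were called, in opposite directions: AARS and AARS2, EPRS and EARS2, LARS and LARS2, MARS and MARS2, SARS and SARS2, and TARS and TARS2. In each of the 6, the cytosolic gene was lower and the mitochondrial gene higher. The cytosolic gene alone was called in 8 pairs, the mitochondrial gene alone in 1 (RARS and RARS2), and neither in 2 (IARS and NARS with their counterparts).

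In the 6 pairs called in opposite directions, a higher mitochondrial share in ELAPOR1 follows from their calls and is not a further result. The balance of MARS2 to MARS shifted most. MARS2 stood at 6.20, 6.41, 5.601 and 5.11% of the MARS level in CPM in the control libraries and at 10.8, 10.9, 12.3 and 12.03% in the ELAPOR1 libraries. The groups were far apart. AARS2 stood at 8.06, 7.04, 7.21 and 6.63% of AARS in control and 10.5, 12.5, 11.2 and 11.6% in ELAPOR1. LARS2 stood at 6.80 ± 0.919% of LARS in control and 10.5 ± 0.405% in ELAPOR1 (SD, n = 4 each).

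The other 3 pairs called in opposite directions shifted the same way, as follows from their calls. EARS2 went from 7.57 ± 0.300% to 10.9 ± 0.334% of EPRS, SARS2 from 15.6 ± 0.700% to 24.2 ± 2.41% of SARS, and TARS2 from 12.5 ± 0.779% to 15.5 ± 0.312% of TARS (SD, n = 4 each). Over all 17 pairs, the mitochondrial share was higher in every ELAPOR1 library than in any control library in 8, which include CARS2 to CARS and YARS2 to YARS, and overlapped in 8. It was lower without overlap in 1: VARS2 went from 19.1 ± 0.921% to 15.3 ± 0.786% of VARS (SD, n = 4 each). The pairs with a higher share include all 6 called in opposite directions, and no such count was made over other pairs of genes. These are ratios of CPM within a library, not per length, so they compare groups and not genes. The mitochondrial calls of SARS2 and TARS2, and the cytosolic calls of AARS and EPRS, are those that ended under settings given above.

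**Figure D4:**
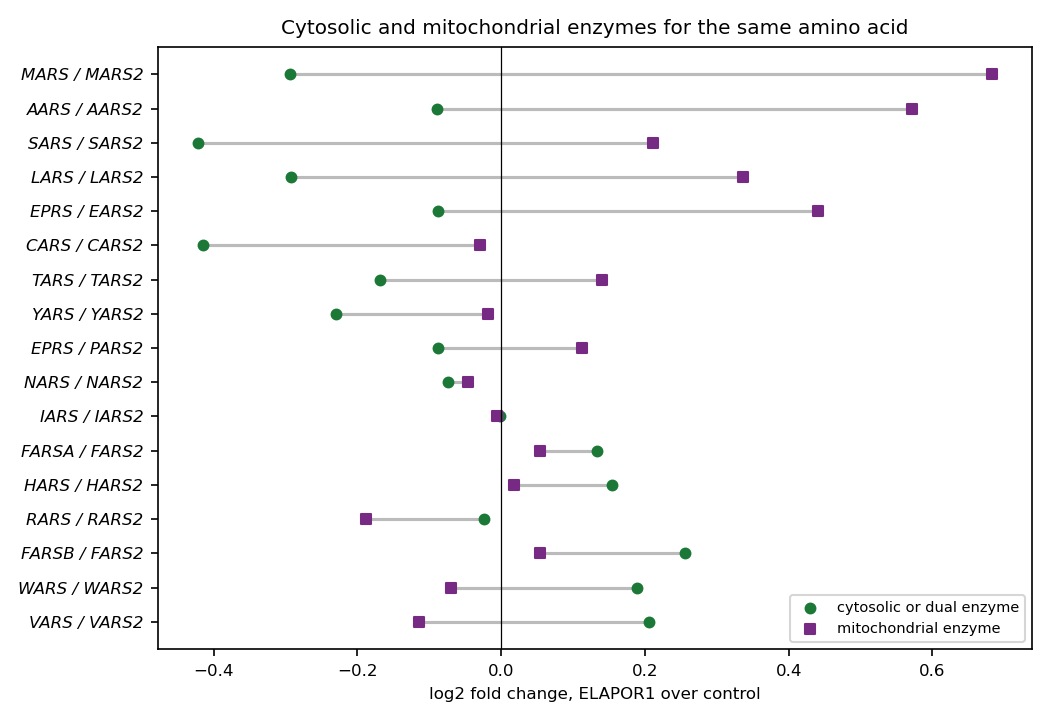
Log2 fold change (ELAPOR1 over control) of the cytosolic gene and of the mitochondrial gene in each of the 17 pairs. In the pairs AARS and AARS2, EPRS and EARS2, LARS and LARS2, MARS and MARS2, SARS and SARS2, and TARS and TARS2 the cytosolic gene lies below 0 and the mitochondrial gene above it.

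The E-box CACGTG, bound by MYC and related factors, was searched in the same promoter windows on both strands. It occurred in 3 of 14 mitochondrial genes (CARS2, EARS2 and MARS2), in 1 of 16 cytosolic genes (IARS) and in 12.5% of all tested genes with a promoter. The matches in EARS2 and MARS2 are shown as they stand in genes that rose, with the E-box in capitals.
EARS2, chr16:23557349-23557376, minus strand: agggagaagccCACGTGtgctattccat
MARS2, chr2:197705347-197705374, plus strand: tgcgcctctcaCACGTGctgtcagaacg

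Genes that work beside the synthetases were taken from lists of partners. In the scaffold of the multisynthetase complex, AIMP2 rose from 48.5 ± 2.63 to 62.3 ± 2.70 CPM (SD, n = 4 each; log2 fold change 0.36, SE 0.0497, edgeR adjusted p = 2.4e-07), and its neighbours had a median of 0.23. AIMP1 (−0.067, adjusted p = 0.196) and EEF1E1 (−0.090, adjusted p = 0.180) were not called. The 4 genes that complete mitochondrial charging were not called: GATB, GATC and QRSL1, which convert misacylated glutamate to glutamine on its tRNA, and MTFMT, which formylates the initiator methionine, had log2 fold changes of 0.042, 0.050, −0.076 and 0.16.

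Of 8 editing enzymes and synthetase paralogs, 1 was called: AARSD1, which removes wrong amino acids from the alanine tRNA, rose by 0.35 (SE 0.0820, edgeR adjusted p = 6.4e-04). On the route that makes selenocysteine on its tRNA and inserts it, SECISBP2, the binding protein of the selenocysteine element, fell by 0.31 (SE 0.0469, edgeR adjusted p = 1.5e-06). PSTK, SEPSECS and EEFSEC were not called, with log2 fold changes of −0.11, 0.14 and −0.083.

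Of 26 tRNA maturation and export genes, 10 were called higher and 2 lower (median log2 fold change 0.11). The share called, 46.2%, was near the 44.7% of all genes tested. RPP40 and POP1, subunits of RNase P, rose by 0.61 and 0.60. XPOT, the exportin of tRNA, fell from 305 ± 12.8 to 243 ± 6.78 CPM (SD, n = 4 each; log2 fold change −0.32, SE 0.0326, edgeR adjusted p = 4.2e-10). Of 19 RNA polymerase III genes, 11 were higher and 2 lower (median 0.14), 68.4% of the list. In the better expressed sets described above, 52.4% and 62.7% were called. Neither list was tested as a group.

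GTF3C1, the largest subunit of the factor that recognises tRNA genes, rose by 0.53 (SE 0.0390, edgeR adjusted p = 2.8e-13), with neighbours on chromosome 16 at a median of 0.46. MAF1, the repressor of RNA polymerase III, fell from 167 ± 4.93 to 125 ± 3.55 CPM (SD, n = 4 each; log2 fold change −0.42, SE 0.0349, edgeR adjusted p = 7.5e-12). The deposited table does not measure tRNA or its charging.

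**Figure D5:**
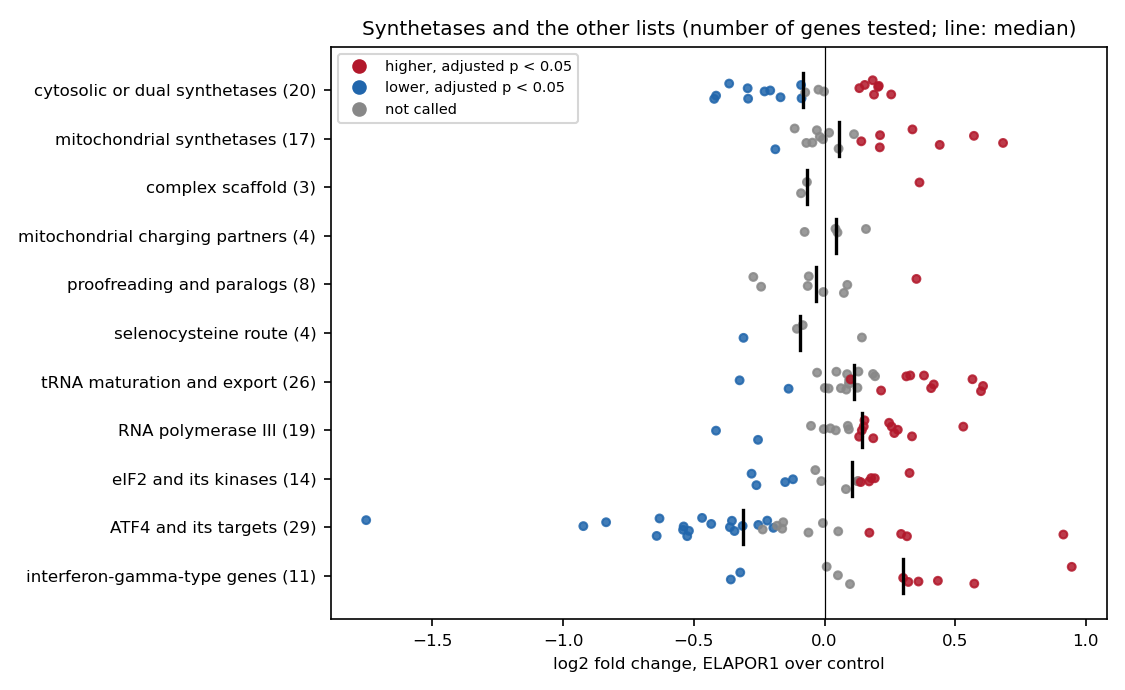
Log2 fold change (ELAPOR1 over control) of each tested gene in the synthetase groups and in the lists of partner genes, coloured by call, with a bar at each list's median. The medians of cytosolic synthetases (−0.081) and of ATF4 and its targets (−0.31) lie below 0, and those of RNA polymerase III (0.14) and interferon-gamma-type genes (0.30) above it.

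ATF4 itself fell. Its level was 349.4, 368.5, 366.3 and 405.7 CPM in control and 257.3, 258.8, 254.8 and 263.9 in ELAPOR1. All ELAPOR1 libraries were below all control libraries (log2 fold change −0.53, SE 0.0349, edgeR adjusted p = 1.1e-13). ATF4 protein is controlled mainly at translation, which RNA levels do not show.

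In a list of ATF4 and its reported targets that holds no synthetase, 18 of the 29 tested genes were called lower and 4 higher (median log2 fold change −0.31). The share called was 75.9%, against 44.7% of all genes tested, and 52.4% and 62.7% of the better expressed sets described above. The share lower was 62.1%, against 22.1% of all genes tested. This list too was chosen with earlier results of these data known, so its shares describe it and test nothing. PHGDH, the first enzyme of serine synthesis, fell by 1.75 (6.69 ± 0.359 to 1.96 ± 0.252 CPM), and CHAC1, which breaks down glutathione, by 0.92 (SD, n = 4 each). ATF5, a related transcription factor, was among the 4 that rose, by 0.91. The 12 synthetases named above were recalled after their values had been seen, so no agreement of their median with that of this list can be read. The part of ATF4 in the synthetase values was not tested.

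Upstream of ATF4, of the 14 genes of the eIF2 kinases, eIF2, its exchange factor and its phosphatase subunits, 6 were higher and 4 lower (median 0.10). The share called was 71.4%, against 44.7% of all genes tested, and 52.4% and 62.7% of the better expressed sets described above. EIF2AK2, the kinase activated by double-stranded RNA, rose by 0.33, and EIF2S3, the gamma subunit of eIF2, fell by 0.28. EIF2AK4, the GCN2 kinase that senses uncharged tRNA, was not called (log2 fold change 0.082, SE 0.0366, edgeR adjusted p = 0.0675).

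WARS was the only gene called higher among the 12 synthetases, and it is also known as a gene induced by interferon gamma. It measured 56.2, 55.7, 60.8 and 62.6 CPM in control and 66.8, 64.9, 70.5 and 66.1 in ELAPOR1, with no overlap (log2 fold change 0.19, SE 0.0476, edgeR adjusted p = 1.4e-03). Of the 11 tested genes of the interferon-gamma type, 6 were higher and 2 lower, with a median of 0.30. The share called was 72.7%, against 44.7% of all genes tested, and 52.4% and 62.7% of the better expressed sets described above. The 2 lower genes were GBP2 and HLA-E (log2 fold changes −0.36 and −0.32), and TAP1, PSMB8 and PSMB9 were not called. IDO1, CIITA, CXCL10 and SOCS1 were too low to test. IRF9, a transcription factor of the interferon response, rose by 0.57 (edgeR, SE 0.0707, adjusted p = 3.3e-08). WARS overlaps WDR25 on the other strand. The part of the interferon pathway in the WARS value was not tested.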

How the data were processed

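RNA from 4 control and 4 ELAPOR1 libraries had been sequenced, and the authors deposited 1 table of expected counts per gene, unscaled between libraries. The submitters' processing notes name cutadapt, STAR, RSEM, DESeq2 and hg38. Use of strand and the annotation release are not given in the sources used here. Of the nonzero expected counts in the deposited table, 15% were not whole, since RSEM divides reads that match several genes. Gene identifiers were found for 58597 of 58870 rows in GENCODE 29 (GRCh38), the source of gene coordinates, transcript lengths and overlaps. Promoter sequences were from RefSeq (GRCh38.p14), matched by symbol. No promoter was used for DARS, LARS, VARS, YARS, AARS2 and VARS2, among others. Single genes counted in the totals are not reported here by name.

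Expected counts were rounded. Genes were filtered with filterByExpr, scaled with TMM and compared by edgeR 4.0.16 (R 4.3.3, robust quasi-likelihood test, two-sided, no covariate), with Benjamini-Hochberg adjustment over 13860 genes. The standard error is the log2 fold change divided by the square root of F, and CPM are scaled by TMM. Neighbours are the 10 tested genes on each side. The procedure was tested on simulated data. Alternatives were DESeq2 1.42.0 size factors and Wald test, limma-voom (limma 3.58.1), total count and upper-quartile scaling, other filters and thresholds, leaving out each library, a block for the replicate number, removal of GC and length trends, and ELAPOR1 left out. Figures were drawn with matplotlib 3.10.9.

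The members and lists were chosen with earlier results of these data known, and the 12 ATF4-raised synthetases were recalled after values were seen. Values in full were given for the 8 cytosolic and 6 mitochondrial called genes with the largest change, pairs called in opposite directions, and genes whose call changed with an alternative; of each list, the 2 called genes with the largest change were named, and all genes of lists under 5. XPOT, WARS, EIF2AK4 and other genes outside this rule were named after their values were seen.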

Additional observations from a re-analysis of the deposited data

Results flagged for a closer look

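In 5 of the 74 groups of 4 libraries examined, 1 library lay far from the other 3 by Dixon's criterion, where chance gives about 1 in 20 groups (3.7 here). Among ELAPOR1 libraries, library 4 held 73.5 CPM of CARS against 78.5 to 79.2 in the others, 9.46 CPM of FARS2 against 11.7 to 12.04, and 27.9 CPM of LARS2 against 25.1 to 25.5. ELAPOR1 library 3 held 21.7 CPM of RARS2 against 18.9 to 19.3. Control library 4 held 19.9 CPM of SARS2 against 17.9 to 18.1.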

How the results depend on the processing

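SARS, CARS, QARS, MARS2, AARS2 and EARS2 kept their call and direction in all 20 alternatives, and no called synthetase changed sign in any. The median log2 fold change of the cytosolic genes was −0.059 with total count scaling and −0.107 with GC and length trends removed. That of the mitochondrial genes was 0.093 with GC and length trends removed and ran from −0.022 (without control library 1, a change of sign) to 0.112 (without control library 2) when 1 library was left out, so its direction rests on 1 control library. At an adjusted p under 0.01, 5 mitochondrial genes were called. Against a 1.2-fold change (glmTreat), 1545 of the 13860 genes tested were called (689 higher and 856 lower), with 6 synthetases, 3 of them cytosolic and 3 mitochondrial. Genes not called changed sign as follows: with total count scaling IARS2 was 0.0157, YARS2 0.0033 and IARS 0.0197, and with GC and length trends removed CARS2 was 0.0054. When 1 library was left out, HARS2 ranged from −0.030 to 0.056, FARS2 from −0.081 to 0.136, IARS from −0.017 to 0.017, WARS2 from −0.136 to 0.018 and CARS2 from −0.087 to 0.0050. NARS was called with upper-quartile scaling, with at least 10 counts in every library and with GC and length trends removed (adjusted p = 0.0318, 0.0489 and 0.0033). Scaling moved the median of all genes by at most 0.022.

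The replicate numbers did not pair the libraries: same-numbered libraries deviated from their group means with correlations of −0.121, 0.027, 0.031 and −0.107 across 10703 genes, and not every library correlated best with its own number. With the replicate block, 5926 genes were called against 6193 without it, and 25 synthetases, 17 of them cytosolic and 8 mitochondrial, as without it, with no synthetase call changed. ELAPOR1, at a log2 fold change of 11.43, ranged from 11.15 to 11.75 when 1 library was left out, and was removed by the filter of 10 counts in every library. PARS2, WARS2 and FARS2, with the fewest counts, had standard errors of 0.110 to 0.118, which limits what can be said of them.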
